A study of Mus musculus with 6 samples.

Results

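Ifit2, Ifit3, Iigp1, Igtp and Irgm2 are mouse genes switched on by interferons, and their read counts were followed in colon RNA of PFOA-exposed and control mice. The genes were found by symbol in the deposited count table, where Igtp and Irgm2 share 1 merged row, so that the 5 genes take 4 of its 2033 rows. All 4 rows were higher in PFOA. The Ifit rows were higher in all 3 PFOA libraries, with replicate 3 the highest. The GTPase rows were also higher in all 3, but PFOA replicate 1 stood far above the other PFOA libraries.

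The exposed mice received PFOA (perfluorooctanoic acid), a fluorinated surfactant that persists in the environment, over a long term, and the others were their controls. Each group had 3 RNA sequencing libraries of colon tissue. The labels speak of 6 frozen mice in each group but do not tie mice to libraries, nor do they state a dose, duration, strain, sex, age or colon segment, and p-values therefore cover only the spread between these libraries. The table holds only rows that differ between the groups: the log2 ratio of mean counts was -1.08 or lower, or 0.92 or higher, in every row. A call on a row is therefore a description, and of a gene with no row nothing is known here.

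Interferons signal from receptors at the cell surface through JAK kinases to transcription factors. Type I and type III interferons act mainly on genes with interferon-stimulated response elements (ISRE), while interferon gamma acts mainly on genes with gamma-activated sites (GAS). IFIT proteins are built of tetratricopeptide repeats and limit viral protein synthesis by binding viral RNA or translation factors. The immunity-related GTPases of mice act inside cells against vacuoles that hold bacteria or parasites: effectors such as Iigp1 load onto the vacuole, and regulators such as Igtp, Irgm1 and Irgm2 sit on the cell's own membranes. In the gut, epithelial and immune cells both respond to interferons, and in bulk tissue RNA fewer cells of a type and less RNA per cell cannot be told apart.

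Ifit2 had 721, 480 and 887 counts in PFOA replicates 1, 2 and 3, against 182, 241 and 335 counts in control replicates 1, 2 and 3. As CPM (counts per 1000000 listed counts, with TMM library scaling), these were 386, 226 and 414 CPM in PFOA and 88.7, 117 and 152 CPM in control. Every PFOA library lay above every control library, and the lowest PFOA value was 1.49 times the highest control value. The mean was 342 ± 101 CPM in PFOA and 119 ± 31.6 CPM in control (SD, n = 3 each), a fold of 2.87. The log2 fold change was 1.52 ± 0.32 (SE), with an edgeR adjusted p of 0.00302. It lay between 1.22 and 1.80 with any single library left out, and the call held under all 16 alternatives. Ifit2 covers chr19:34550694-34576419 on the plus strand of mm10.

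Ifit3 is the neighbouring gene, at chr19:34583531-34588731 on the same strand. It had 88, 101 and 209 counts in PFOA replicates 1, 2 and 3, against 46, 49 and 86 counts in control replicates 1, 2 and 3. That is 47.2, 47.5 and 97.5 CPM in PFOA and 22.4, 23.7 and 39.0 CPM in control. PFOA replicates 1 and 2 lay close together and replicate 3 was higher; the groups did not overlap, with the lowest PFOA value at 1.21 times the highest control value. The mean was 64.1 ± 28.9 CPM in PFOA and 28.4 ± 9.21 CPM in control (SD, n = 3 each), a log2 fold change of 1.17 ± 0.41 (SE; edgeR adjusted p = 0.0221). The call was lost without PFOA replicate 3 (0.75, edgeR adjusted p = 0.0941), control replicate 1 (0.90, adjusted p = 0.0937) or control replicate 2 (1.01, adjusted p = 0.0776). Of the 50-base windows of its annotated exons, 51.2% also occur in the exons of Ifit3b, a close copy with no row, so reads of these genes may be counted for each other. Ifit2 shares none of its windows with another annotated gene.

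The promoter of Ifit3 is shown because it holds 3 matches to the ISRE core, searched as GAAANNGAA on both strands. The window is the RefSeq sequence (GRCm38.p6) from 250 bases before to 50 bases after the gene's start, at chr19:34583279-34583578 on the plus strand, and capitals mark the matches.
Ifit3: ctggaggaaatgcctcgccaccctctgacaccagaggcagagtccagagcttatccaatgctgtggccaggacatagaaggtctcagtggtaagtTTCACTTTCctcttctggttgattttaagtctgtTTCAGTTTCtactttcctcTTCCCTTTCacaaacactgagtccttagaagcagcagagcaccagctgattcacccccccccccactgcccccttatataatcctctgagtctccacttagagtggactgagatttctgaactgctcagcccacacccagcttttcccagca
The matches read on the minus strand and lie at -155 to -147, -121 to -113 and -102 to -94 relative to the start. The GAS letters, searched as TTCNNNGAA, which reads the same on both strands, do not occur in this window. Ifit2 has 2 start sites in RefSeq: the first window holds 1 GAS match at -241 to -233 and no ISRE core, and the second holds neither. Among all 32851 promoter windows, 8.56% hold the ISRE core, 8.3% the GAS letters and 1.07% both. The 2 motifs can overlap where GAA is shared; here the printed matches do not. A match is a description of letters, not of binding.

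Igtp and Irgm2, both regulatory GTPases, were counted together in 1 row at chr11:58199556-58222782 on the plus strand. The annotation places Igtp at 58199556 to 58207591. One annotated Irgm2 transcript starts at 58199618, within Igtp, and the other Irgm2 transcripts start at 58215008 and 58215028. The row therefore gives their sum, and the share of each gene is not known. It had 4403, 1148 and 1331 counts in PFOA replicates 1, 2 and 3, against 679, 749 and 949 counts in control replicates 1, 2 and 3. PFOA replicate 1 had 2360 CPM, and replicates 2 and 3 had 540 and 621 CPM, against 331, 362 and 430 CPM in control. The groups did not overlap, but replicates 2 and 3 lay much nearer to control than to replicate 1. Their mean was 1.55 times the control mean, and replicate 1 was 6.3 times the control mean. The group means were 1174 ± 1028 CPM in PFOA and 375 ± 50.7 CPM in control (SD, n = 3 each), with a log2 fold change of 1.65 ± 0.56 (SE; edgeR adjusted p = 0.0199). Without PFOA replicate 1 the log2 fold change was 0.60 (edgeR adjusted p = 0.02), and with quality weights on the libraries it was 0.74 (limma-voom adjusted p = 0.0473). The call was lost without control replicate 1, 2 or 3 (edgeR adjusted p = 0.0803, 0.0587 and 0.0528) and when the fit had a replicate block (1.28, edgeR adjusted p = 0.0586).

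The promoters of Igtp and Irgm2 are shown together because they are near copies that carry the same pair of motifs. Both are RefSeq windows (GRCm38.p6) on the plus strand, Igtp at chr11:58199306-58199605 and Irgm2 at chr11:58214727-58215026, and capitals mark the GAS match followed by the ISRE core match.
Igtp: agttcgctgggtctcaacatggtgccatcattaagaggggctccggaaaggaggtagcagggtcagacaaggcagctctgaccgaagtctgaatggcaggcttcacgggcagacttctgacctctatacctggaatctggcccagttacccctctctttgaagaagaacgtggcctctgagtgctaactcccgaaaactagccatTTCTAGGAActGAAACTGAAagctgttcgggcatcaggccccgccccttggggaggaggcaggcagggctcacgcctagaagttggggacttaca
Irgm2: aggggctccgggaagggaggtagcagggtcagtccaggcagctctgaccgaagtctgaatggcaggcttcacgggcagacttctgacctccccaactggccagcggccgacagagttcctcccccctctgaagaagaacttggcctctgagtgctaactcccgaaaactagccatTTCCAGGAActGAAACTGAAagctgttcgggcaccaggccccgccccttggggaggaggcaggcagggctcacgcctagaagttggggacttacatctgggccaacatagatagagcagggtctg
In Igtp the GAS match lies at -45 to -37 and the ISRE core at -34 to -26 relative to the start. In Irgm2 they lie at -75 to -67 and -64 to -56. In a local alignment the promoters were identical at 247 of 271 aligned columns (91.1%). Each holds both motifs, which 1.07% of all promoter windows do. Of the 12 immunity-related GTPase genes with a row, 8 had a window in the RefSeq table, of which 7 held the ISRE core and 6 the GAS letters, against 9.76% and 9.55% of all 27025 genes with a window. These genes are copies of one another and their promoters are not independent.

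**Figure D1:**
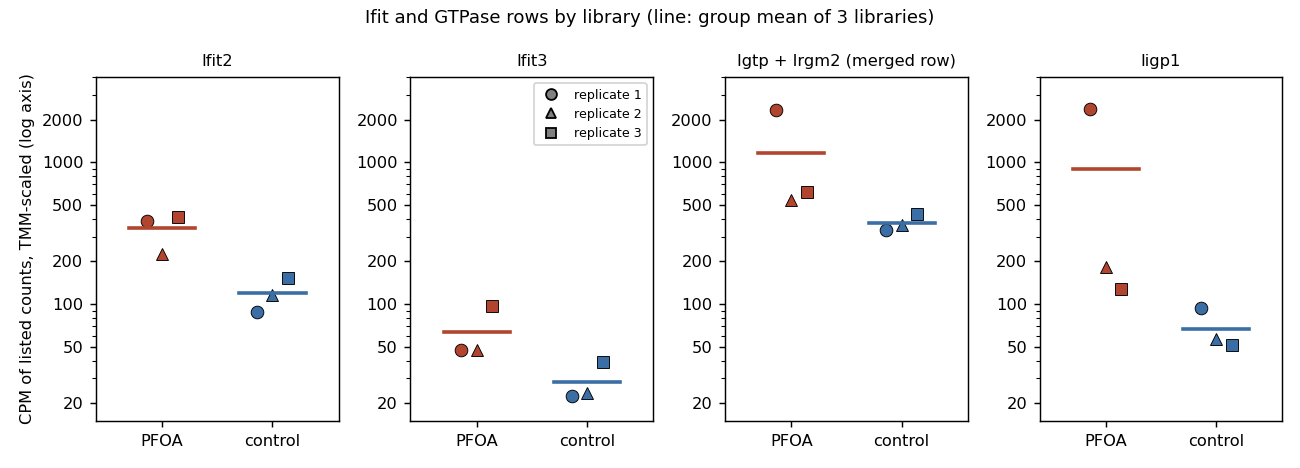
CPM (TMM-scaled, log axis) of the 4 rows in each library, PFOA in red and control in blue, with symbols for the replicate number and a line at each group mean. Replicate 1 stands far above the other PFOA libraries for Igtp + Irgm2 (2360 CPM) and Iigp1 (2396 CPM), but not for Ifit2 or Ifit3.

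Iigp1, an effector that coats parasite vacuoles, showed the largest fold change and the widest spread of the 4 rows. It had 4471, 390 and 276 counts in PFOA replicates 1, 2 and 3, against 192, 118 and 113 counts in control replicates 1, 2 and 3. On the CPM scale PFOA replicate 1 had 2396, replicate 2 had 184 and replicate 3 had 129, against 93.6, 57.1 and 51.2 CPM in control. All PFOA libraries lay above all control libraries. Replicate 1 was 15.3 times the mean of PFOA replicates 2 and 3, and those were in turn 2.32 times the control mean. The group means were 903 ± 1294 CPM in PFOA and 67.3 ± 23 CPM in control (SD, n = 3 each), a fold of 13.4 and a log2 fold change of 3.74 ± 1.12 (SE; edgeR adjusted p = 0.0122). Without PFOA replicate 1 the log2 fold change was 1.18 (edgeR adjusted p = 0.0098). It was 2.50 with a replicate block (edgeR adjusted p = 0.0213) and 1.78 with quality weights (limma-voom adjusted p = 0.0217), and plain limma-voom lost the call (2.54, adjusted p = 0.0553). The row spans chr18:60358616-60392634 on the plus strand and carries the deposited gene type processed_pseudogene. It takes in an annotated processed pseudogene, AC151990.1, at 60361455 to 60362666, ahead of Iigp1 itself, which GENCODE lists as protein-coding at 60376027 to 60392634. Of the 50-base windows of its annotated exons, 1.69% occur in another gene.

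All 4 rows passed the test, as did 50% of all 1608 tested rows in the direction of PFOA, and in all 4 every PFOA library lay above every control library, as in 777 of the tested rows (48.3%). These 777 are 96.6% of the 804 rows called higher, and the other tested rows were all called lower, so neither count sets the 4 rows apart. Among the 804 rows called higher, the median log2 fold change was 1.71. Iigp1 ranked 104, the Igtp and Irgm2 row 421, Ifit2 482 and Ifit3 664 from the largest down, so Iigp1 was the only one of the 4 above that median.

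PFOA replicate 1 was the highest PFOA library in 399 of the 804 rows called higher (49.6%), and the median ratio of replicate 1 to the mean of replicates 2 and 3 was 1.09. That ratio was 1.21 for Ifit2 and 0.65 for Ifit3. It was 4.06 for the Igtp and Irgm2 row, which ranked 31 of the 804, and 15.3 for Iigp1, which ranked 7. Ifit2 and Ifit3 ranked 335 and 655, near or below the middle of the rows called higher, and both GTPase rows were near the top. In replicates 2 and 3 alone, the folds over control were 2.69 for Ifit2, 2.56 for Ifit3, 2.32 for Iigp1 and 1.55 for Igtp and Irgm2. Replicate 1 was at least 3 times the others in 51 rows (6.34%), and 10 of these belonged to the interferon and GTPase lists described below.

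**Figure D2:**
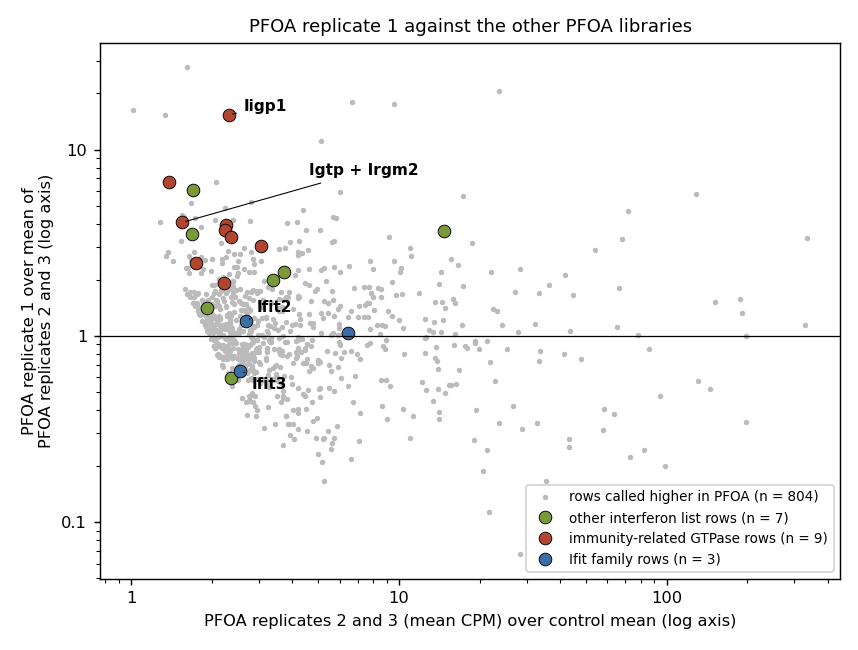
Each point is 1 of the 804 rows called higher in PFOA, with the mean of PFOA replicates 2 and 3 over the control mean on the horizontal axis and PFOA replicate 1 over the mean of replicates 2 and 3 on the vertical axis (both log axes). The 9 immunity-related GTPase rows all lie above 1 on the vertical axis, up to 15.3 for Iigp1, and the 3 Ifit rows lie between 0.65 and 1.21.

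The wider Ifit family was followed in a list of 6 genes, of which Ifit2, Ifit3 and Ifit1bl2 have a row. All 3 rows rose, as did 50% of all 1608 tested rows, with a median log2 fold change of 1.52 for the 3. Ifit1bl2, an Ifit1-like gene, changed most: it had 801, 632 and 1137 counts in PFOA replicates 1, 2 and 3, against 84, 170 and 153 counts in control replicates 1, 2 and 3. The groups were far apart, with a log2 fold change of 2.71 ± 0.35 (SE, n = 3 each; edgeR adjusted p = 5.14e-04) that hardly moved without PFOA replicate 1 (2.66). The row reaches over Ifit1, which lies on the other strand and has no row, and the use of strand in counting is not given in the sources used here, so reads of these genes cannot be told apart. The 3 rows follow one another over 111.7 kb of chromosome 19, and none had PFOA replicate 1 as its highest PFOA library. Their summed level was 863, 571 and 1042 CPM in PFOA replicates 1, 2 and 3, against 152, 223 and 260 CPM in control replicates 1, 2 and 3.

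The immunity-related GTPases were followed in a list of 22 names, of which 12 were found, in 10 rows. The Ifgga names of this list have no locus in the annotation, so 22 may exceed the number of separate genes. All 9 tested rows rose, with a median log2 fold change of 2.06. PFOA replicate 1 was the highest PFOA library in each of the 9. Among all 1608 tested rows, 50% were called higher, and replicate 1 was the highest PFOA library in 49.6% of those. Over these 9 rows, the ratio of replicate 1 to the mean of the others had a median of 3.71 and ranged between 1.92 and 15.3. It was at least 2 in 8 of the 9 rows, against 0 of 3 Ifit rows and 123 of all 804 rows called higher (15.3%). The difference between the families in this ratio was not tested. Summed over the list, PFOA replicate 1 had 6213 CPM and replicates 2 and 3 had 1168 and 1306 CPM, against 627, 687 and 759 CPM in control.

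These GTPases lie in clusters, and the listed rows inside each cluster moved the same way. On chromosome 11, 5 rows follow one another over 202.2 kb between Irgm1 and Tgtp2. All 5 were higher in PFOA and highest in replicate 1. Among all tested rows, 50% were called higher, and 49.6% of those had replicate 1 as the highest PFOA library. Irgm1, a regulator linked to autophagy, had 852, 352 and 444 counts in PFOA replicates 1, 2 and 3, against 228, 219 and 230 counts in control replicates 1, 2 and 3. Its groups did not overlap, and its log2 fold change of 1.37 ± 0.39 (SE, n = 3 each; edgeR adjusted p = 0.0101) was 0.77 without PFOA replicate 1. Tgtp1 and Tgtp2, effectors that bear the name T-cell-specific GTPase, lie in this cluster as well. The name is no result on which cells held this RNA. The row of Gm12185 and Tgtp1 had 335, 61 and 54 counts in PFOA replicates 1, 2 and 3, against 40, 34 and 50 counts in control replicates 1, 2 and 3. Replicates 2 and 3 were thus near control, and the call was lost without PFOA replicate 1 (0.43, edgeR adjusted p = 0.204). Tgtp2 had 47, 15 and 14 counts in PFOA and 8, 6 and 5 counts in control, and 85.8% of its 50-base exon windows also occur in Tgtp1, so the values of these rows are uncertain.

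Further along chromosome 11, Gm12250 lies 10544 bases ahead of the Igtp and Irgm2 row. It had 504, 133 and 205 counts in PFOA replicates 1, 2 and 3, against 38, 82 and 94 counts in control replicates 1, 2 and 3, a log2 fold change of 2.08 (edgeR adjusted p = 0.0104). On chromosome 18, 5 rows over 180.6 kb ended in Iigp1, and the mean of each was higher in PFOA with replicate 1 the highest PFOA library. One of them, the long non-coding RNA Gm50237, was not tested and its groups overlapped, with 27, 3 and 1 counts in PFOA and 1, 0 and 0 counts in control. Gm4951 had 164, 60 and 35 counts in PFOA and 13, 20 and 30 counts in control. F830016B08Rik, 55600 bases ahead of Iigp1, had 160, 75 and 45 counts in PFOA and 31, 9 and 18 counts in control. Gm4841, too low to be tested, had 130, 13 and 4 counts in PFOA and 2, 0 and 2 counts in control. The next listed row past Iigp1, Smim3, which is no immunity-related GTPase, had 362, 215 and 259 counts in PFOA and 94, 96 and 104 counts in control.

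Other genes known to respond to interferon were followed in 3 lists. Of 18 guanylate-binding proteins and very large GTPases, 4 genes had 2 rows, and both rose. The row of Gvin1 and 4 related genes had 3548, 5132 and 6359 counts in PFOA replicates 1, 2 and 3, against 1220, 2013 and 2407 counts in control replicates 1, 2 and 3, with replicate 1 the lowest PFOA library. Of 79 other interferon-stimulated genes, 9 had a row. Of the 8 tested, 7 rose and 1 fell, while 50% of all tested rows were called higher. Cxcl11, a chemokine that draws T cells, had 64, 25 and 15 counts in PFOA and 1, 2 and 1 counts in control, and its log2 fold change was 4.67 ± 0.83 (SE, n = 3 each; edgeR adjusted p = 0.00165). Cxcl9, a chemokine induced by interferon gamma, had 272, 67 and 35 counts in PFOA and 36, 20 and 33 counts in control, and lost its call without PFOA replicate 1 (0.73, edgeR adjusted p = 0.122). The merged row of Mx1, an antiviral GTPase, and Fam3b had 5429, 4317 and 4430 counts in PFOA and 1720, 2553 and 2475 counts in control. Its PFOA replicate 1 was at 1.42 times the mean of the other PFOA libraries on the CPM scale. The share of each gene in this row is not known. Both this row and the Cxcl11 row carry the deposited gene type polymorphic_pseudogene. Nos2, the inducible nitric oxide synthase, had 801, 472 and 361 counts in PFOA and 166, 58 and 107 counts in control. Ido1, which breaks down tryptophan, had 380, 242 and 192 counts in PFOA and 141, 23 and 23 counts in control, and lost its call without PFOA replicate 1 (1.73, edgeR adjusted p = 0.0585). Phf11b was highest in PFOA replicate 3, like Ifit3, with 53, 79 and 125 counts in PFOA and 35, 42 and 51 counts in control. Slfn4 was the tested row that fell (log2 fold change -1.23). It had 369, 599 and 605 counts in PFOA and 751, 1606 and 1427 counts in control. Slfn1, which was not tested, was lower in PFOA as well, with 0, 0 and 3 counts against 5, 9 and 16 counts in control. A list of interferons, receptors and signalling genes held 45 names, some of them synonyms, of which 1, Il18, had a row. This cytokine promotes interferon gamma production and fell, with 159, 128 and 110 counts in PFOA and 419, 641 and 786 counts in control. Of 35 antigen presentation genes, 1 row was listed, the merged row of H2-T3 with 7 other names, which rose (log2 fold change 1.19).

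Over the 4 lists of Ifit genes, immunity-related GTPases, guanylate-binding proteins and other interferon-stimulated genes, 28 of 125 gene names were found, in 24 rows. Of the 22 rows tested, 21 were called higher and 1 lower, with a median log2 fold change of 1.82. Over all 1608 tested rows, 50% were called higher and the rest lower, and these lists were chosen with earlier results known. Of the 21, 19 had groups that did not overlap, against 96.6% of all rows called higher. Without PFOA replicate 1, 15 of these 21 were still called higher. The 6 that were not were Cxcl9, Gbp11, the Tgtp1 row, Gm5431, Ido1 and the Ifi47 row. Left out in turn, control replicates 1, 2 and 3 left 15, 13 and 13 of the 21. The Ifi47 row spans Tgtp1 and Tgtp2 on the other strand, so its reads cannot be told apart from theirs.

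**Figure D3:**
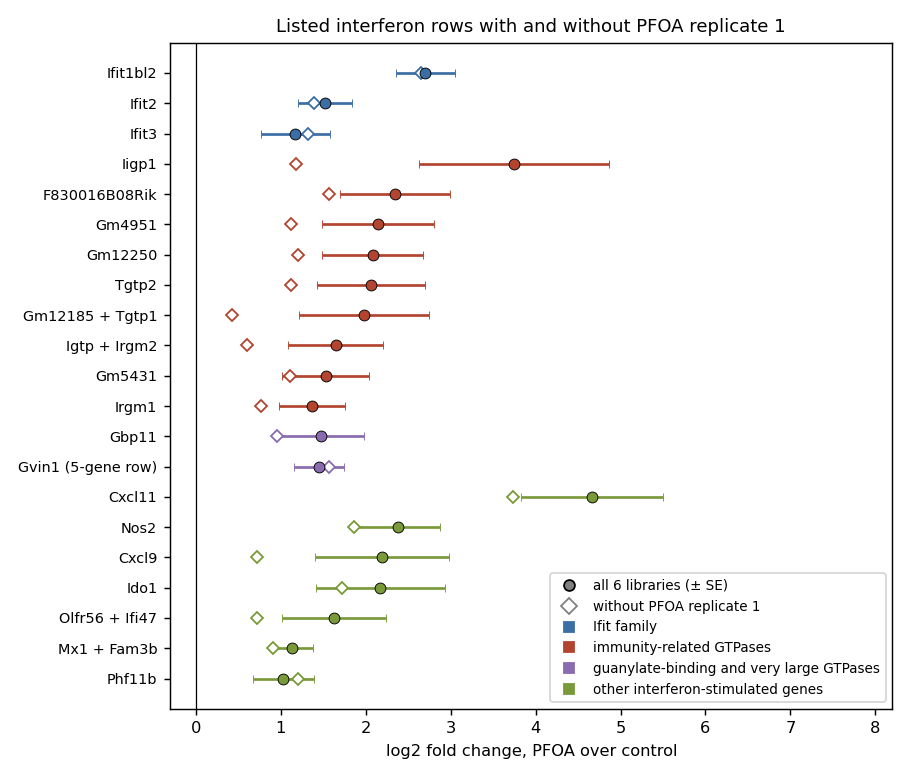
Log2 fold change of PFOA over control for the 21 list rows called higher, with filled circles and SE bars for all 6 libraries and open diamonds for the fit without PFOA replicate 1. The diamonds of the 9 immunity-related GTPase rows all lie left of their circles, as for Iigp1 (1.18 against 3.74), while those of the Ifit rows lie within the SE bars.

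Markers of other cells moved with these rows. Of 32 T and natural killer cell markers, 12 had a row and all 11 tested rose, with PFOA replicate 1 the highest PFOA library in 10. Over all tested rows 50% were called higher and the rest lower, and replicate 1 was the highest PFOA library in 49.6% of those called higher. Their summed level was 518, 322 and 249 CPM in PFOA replicates 1, 2 and 3, against 120, 75.5 and 97.9 CPM in control replicates 1, 2 and 3. Gzmb, a granzyme of cytotoxic cells, had 120, 57 and 28 counts in PFOA and 10, 5 and 7 counts in control. Cd8a, the co-receptor of cytotoxic T cells, had 160, 126 and 69 counts in PFOA and 60, 32 and 52 counts in control. No marker with a row was at 0 in any library, and the other 20 listed markers have no row. Of 13 neutrophil markers, 1 had a row (Ly6g, which fell, log2 fold change -5.83), and of 18 B and plasma cell markers, 0. The part of these cells in the Ifit and GTPase results was not tested.

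Antimicrobial and acute-phase genes also differed within the PFOA group. Of 23 such genes, 11 had a row, and of the 9 tested, 7 rose and 2 fell. Those that fell were Saa1 (log2 fold change -1.445) and Il18 (-2.146). Among all tested rows, 50% were called higher and the rest lower. The summed level of the 11 rows was 19142 CPM in PFOA replicate 1 and 6939 and 5212 CPM in replicates 2 and 3. In control replicates 1, 2 and 3 the sum was 6811, 7770 and 8047 CPM. Saa1 made up much of the control sum, with a mean of 5777 CPM in control and 2121 CPM in PFOA. Reg3b, a bactericidal lectin, had 14969, 3962 and 1941 counts in PFOA and 61, 5 and 0 counts in control. The high level of replicate 1 in these genes and in the GTPases was not tested for a common source. Of 25 colon epithelium markers, 10 had a row. Rows of Cdx2, Car1 and Muc2 rose and rows of Slc26a3, Zg16, Clca1, Tff3, Fcgbp, Car4 and Saa1 fell. Each had at least 619 counts in every library. These markers cannot show whether all libraries come from the same colon segment, which was not tested.

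**Figure D4:**
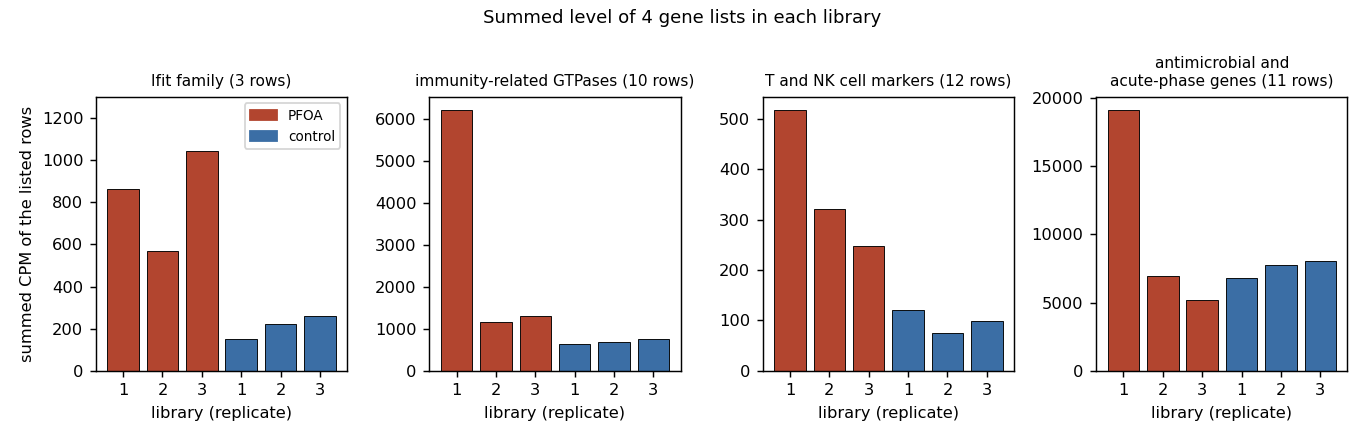
Summed CPM of the rows of 4 gene lists in each library, PFOA bars left of control bars and replicate numbers below. PFOA replicate 1 is the highest bar for the GTPases (6213), the T and NK (natural killer) cell markers (518) and the antimicrobial genes (19142), but not for the Ifit family, where replicate 3 is (1042).

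Levels of different genes were compared per kilobase of the deposited length. In PFOA the Igtp and Irgm2 row had 129 ± 113, Ifit2 87.1 ± 25.9, Iigp1 73.5 ± 105 and Ifit3 36.7 ± 16.6 CPM per kb (SD, n = 3 each). In control the Igtp and Irgm2 row had 41.2 ± 5.57, Ifit2 30.3 ± 8.06, Ifit3 16.3 ± 5.28 and Iigp1 5.48 ± 1.87 CPM per kb (SD, n = 3 each). In control the ranges of the Igtp and Irgm2 row and of Ifit2 overlapped, although the Igtp and Irgm2 row was the higher within each of the 3 libraries, and Iigp1 was the lowest within each. In PFOA the libraries of neighbours in the order overlap. The deposited lengths of the GTPase rows, 9100 and 12284 bases, exceed the joined annotated exons of their genes, 5550 and 7035 bases. Over those exon lengths the row of Igtp and Irgm2 had 211 CPM per kb in PFOA and 67.5 in control. Iigp1 had 128 in PFOA and 9.57 in control. For Ifit2 and Ifit3 both lengths are equal. By mean over exon lengths, Iigp1 thus came before Ifit2 in PFOA, and the order in control did not change. The overlaps given above were taken over the deposited length.

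The rows most like each member were found by the Pearson correlation of log2 CPM over the 6 libraries among 1299 rows, as a description in libraries that share the group difference. For Igtp and Irgm2 the closest was Mlkl, the executor of necroptosis, at 0.998, with 903, 350 and 423 counts in PFOA replicates 1, 2 and 3, against 247, 272 and 330 counts in control replicates 1, 2 and 3. It was followed by Gm29112 (0.995) and Mpp6 (0.993). For Iigp1 the closest was Slc2a6, a sugar transporter family gene, at 0.999, with 454, 135 and 107 counts in PFOA and 89, 69 and 73 counts in control, followed by Tgtp2 (0.985) and Stil (0.979). For Ifit2 they were Gm16401 (0.99), Cnksr2 (0.984) and Tmem171 (0.976), and for Ifit3 Tnfrsf11b (0.976), Ighv2-3 (0.965) and Nnat (0.963). The number of rows above 0.9 was 161 for Ifit2, 22 for Ifit3, 60 for Igtp and Irgm2 and 56 for Iigp1. Tgtp2, named for Iigp1, is the only interferon or GTPase list gene among the rows named for the 4 member rows.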

How the data were processed

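RNA of mouse colon was sequenced in 6 libraries, 3 per group. The authors deposited raw read counts per gene row in 1 table. HISAT2, HTSeq and the mm10 build are named, without versions or order, per the submitters' processing notes. How strand, multi-mapping reads and row selection were handled is not given in the sources used here. Listed counts per library sum to between 1771120 and 2269892, which is not the sequencing depth. The test was edgeR's quasi-likelihood test (version 4.0.16, in R 4.3.3) on 1608 rows that passed filterByExpr, with TMM scaling, PFOA against control without covariates, two-sided, at a Benjamini-Hochberg adjusted p of 0.05 over all tested rows. All tested rows passed (largest adjusted p 0.0408). SE is the absolute log2 fold change over the square root of F. Alternatives were DESeq2 1.42.0, limma-voom (limma 3.58.1), other scalings and filters, a replicate block and each library left out. The edgeR step was tested on simulated data. Sequences are RefSeq promoter windows, and exon windows come from GENCODE annotation of mm10. The members and gene lists were chosen with earlier results of these data known. Named genes are the members, list genes with a row, the 3 rows most like each member and neighbouring rows. Some list results are not reported here.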

Additional observations from a re-analysis of the deposited data

How the results depend on the processing

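All 4 rows stayed higher in PFOA under every alternative that gave an adjusted p for the row. Ifit2 kept its call throughout. Igtp with Irgm2 lost it with the replicate block (log2 fold change 1.28, edgeR adjusted p = 0.0586), and Iigp1 lost it with limma-voom (2.54, adjusted p = 0.0553); the causes were not tested. DESeq2 gave no adjusted p for Iigp1. With 1 library left out, Ifit3 ranged between 0.75 and 1.39 and Igtp with Irgm2 between 0.60 and 2.05. The number of the 4 rows called ranged between 2 and 4 and was lowest without control replicate 1 or 2. Every such fit had 1 library fewer, and the reason for the lower count was not tested. The count of interferon and GTPase list rows called higher was 21 and ranged between 14 and 22. Scaling by library totals alone shifted the median of all rows by -0.20 on the log2 scale, with Ifit3 at 0.98. Deviations of same-numbered libraries correlated at 0.11, -0.03 and 0.10, and those of differently numbered libraries between -0.149 and 0.117. With 3 libraries per group, these values cannot show whether the numbers pair the samples. The block moved the count of rows called higher to 780, against 804 without it. Sequencing depth is unknown.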

Other observations

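Some rows outside the lists were named after their values were seen. Tnfsf10, the death ligand TRAIL, had 1683, 461 and 461 counts in PFOA replicates 1, 2 and 3, against 207, 187 and 273 counts in control replicates 1, 2 and 3 (log2 fold change 2.08 ± 0.58, SE, n = 3 each; edgeR adjusted p = 0.00938). Trim40 had 2032, 555 and 490 counts in PFOA and 276, 364 and 358 counts in control. PFOA replicate 1 was 4.18 times the mean of the other PFOA libraries for Tnfsf10 and 4.45 times for Trim40. Ubd, a ubiquitin-like modifier, had 142, 123 and 95 counts in PFOA and 64, 37 and 32 counts in control, with replicate 1 at 1.49 times that mean. The PFOA libraries of Tnfsf10, Trim40 and Ubd all lay above their control libraries on the CPM scale.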
